A study of Mus musculus and Homo sapiens with 12 samples.

Results

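EMT6 cells labelled as PFKFB4 knockout were compared with wild-type EMT6 cells. EMT6 is a mouse mammary carcinoma line that is widely grown in culture and in mice. The comparison uses 6 of the 12 libraries of the series, 3 labelled wild type and 3 labelled PFKFB4 knockout. Both groups grew in high-glucose DMEM with 10% serum and antibiotics, and libraries were made from total RNA with an mRNA kit. The other libraries come from a human line and were not used here. The labels call the libraries of a group biological replicates, but do not say whether these came from separate cultures, nor whether the knockout is 1 clone or a pool, nor how the gene was disrupted. P-values therefore measure only the spread between these libraries. The wild-type columns carry the name of their group. The knockout columns carry the code A7, which no label explains, and were taken as knockout by elimination. Of 54331 genes in the table, 13499 reached at least 0.5 TPM (a unit of transcript abundance corrected for gene length and library size) in 3 of the 6 libraries. All tests were run on these.

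PFKFB4 is a bifunctional enzyme with a kinase and a phosphatase domain. It makes and removes fructose 2,6-bisphosphate, the activator of phosphofructokinase, and so adjusts flux through glycolysis. In tumour cells it has also been studied as a kinase acting on transcriptional coactivators. The question here was which regulators differed between the groups: transcription factors, which bind DNA and set the output of other genes, receptors, which receive signals at the cell surface, and secreted proteins, which carry them.

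Libraries were first divided by their median ratio to the gene-wise geometric mean, and all values below are scaled TPM unless stated. This step moved the median log2 change over all tested genes from -0.21 in TPM as deposited to -0.014, so that undoing it shifts the median by -0.19. Between 12350 and 12426 genes reached 1 TPM in the wild-type libraries, against 11871 to 12015 in the knockout libraries. Depth is unknown, because TPM keeps no record of read numbers. Change also moved with exon length: among protein-coding genes the median log2 change was 0.26 in the quartile with the shortest exon length and -0.21 in the quartile with the longest (Spearman's rho -0.38 across genes, which are not independent replicates). The part of exon length in single results was not tested, so counts are also given with a length trend removed from each library. Of the epithelial markers, Krt8 was abundant (415 to 597 scaled TPM), while Epcam and Cdh1 stayed under 1 TPM in every library. The mesenchymal marker Vim stood at 2367 to 3656 scaled TPM, while Cdh2 stayed under 1 TPM in every library. Of 7 mesenchymal markers, 6 were tested and moved in both directions. Vim and S100a4 were called higher in the knockout, and Fn1, Zeb1, Col1a1 and Col1a2 lower. Fn1 (-0.21) lost its call in 6 of 15 alternatives, among them removal of the length trend (0.03), where S100a4 lost its call too (0.039). In bulk RNA, fewer cells of a type and less RNA per cell cannot be told apart.

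The targeted transcript was detected in all 6 libraries. For Pfkfb4 (ENSMUSG00000025648, on chromosome 9, 108991778 to 109032228 of GRCm38) the values were 9.19, 9.83 and 9.51 scaled TPM among wild-type libraries and 7.63, 7.31 and 8.99 among knockout libraries. All knockout values lay below all wild-type values. The log2 change of -0.23 ± 0.085 (SE; limma adjusted p = 0.0632) was not called. TPM as deposited gave a call (-0.45, limma adjusted p = 0.00487), as did leaving out knockout replicate 3 (-0.30, limma adjusted p = 0.0214). The transcript level gives only a weak check of the labels, since a disrupted gene can still be transcribed and these values do not separate its exons.

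Over all tested genes, 3584 (26.6%) were called higher and 3426 (25.4%) lower, at an adjusted p of at most 0.05. Changes of at least 2-fold, meaning a log2 change of at least 1 in either direction on the log2(scaled TPM + 1) scale, were called for 313 genes higher (2.32%) and 334 lower (2.47%). That scale understates the change of low genes. Among 11104 protein-coding genes the shares were 28.2% higher and 27.5% lower, and 2.04% and 2.19% at 2-fold. Without scaling, 1954 genes were higher and 5705 lower, so the balance of directions follows the scaling. In 62.6% of tested genes the groups were free of overlap. Genes named for the size of their change within a class had to have groups that do not overlap, so that this separation is part of how they were chosen. Pfkfb4 and the genes named for a gain or loss in TPM had no such condition.

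Regulators did not all move alike. Protein-coding genes were sorted by symbol into 12 classes and 66 families. Of 298 tested transcription factors, 51 were higher and 121 lower, and 9 in each direction reached 2-fold (3.02% each). Receptors leaned lower: of 181, 22 were higher and 91 lower, with 3 at least 2-fold higher (1.66%) and 19 at least 2-fold lower (10.5%). Secreted proteins changed strongly both ways: of 284, 80 were higher and 115 lower, and 31 (10.9%) and 30 (10.6%) reached 2-fold. The share of lower calls exceeded that of higher calls in all 3 classes in TPM as deposited (29 and 173, 13 and 119, 62 and 140) and with the length trend removed (56 and 108, 32 and 85, 72 and 119). In TPM as deposited this held for protein-coding genes in general, with 1681 higher and 5111 lower of 11104. With the length trend removed these counted 3007 and 2797. The median exon length was 5364 nt for the transcription factors, 4829 nt for the receptors and 3480 nt for the secreted proteins, against 4451 nt for all tested protein-coding genes. Without wild-type replicate 1, 12 receptors were at least 2-fold lower, and without wild-type replicate 3, 5 were at least 2-fold higher. These 3 classes held 101 of the 470 protein-coding genes called at 2-fold, and all 12 classes together held 201.

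**Figure D1:**
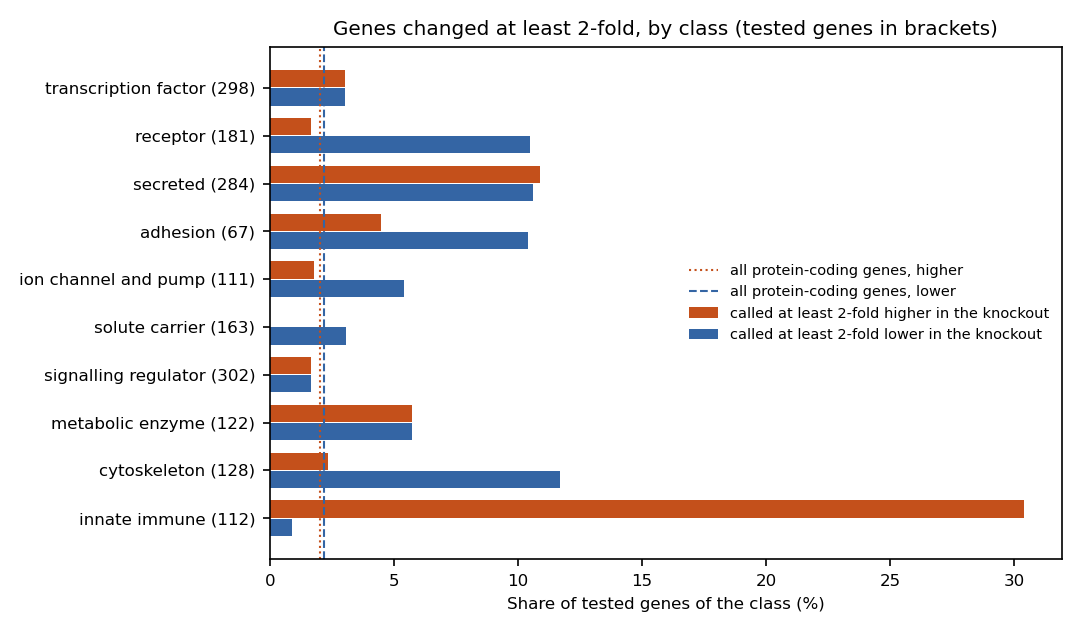
Share of tested genes (x axis, percent) that were called at least 2-fold higher (orange bars) or lower (blue bars) in the knockout, for classes with at least 50 tested genes (number in brackets). Dotted and dashed lines mark the shares over all protein-coding genes, 2.04% and 2.19%. The innate immune class stands at 30.4% higher and 0.893% lower, and the receptors at 1.66% and 10.5%.

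The named rises among transcription factors were those of Irf7, Atf3, Dbp, Nr1d1 and Batf. Irf7, which drives type I interferon genes (chromosome 7, 141262706 to 141266481), was at 2.39, 2.2 and 1.97 scaled TPM among wild-type libraries and 35.2, 37.7 and 37 among knockout libraries. The knockout libraries held 16.7 times the wild-type mean, a log2 change of 3.56 ± 0.069 (SE; limma adjusted p = 9.74e-06). Irf9 (1.28) and Stat2 (1.19), parts of the complex that carries the interferon signal to DNA, were chosen after their values were seen. Irf9 rose from 2.47 ± 0.199 to 7.43 ± 0.13 scaled TPM (SD, n = 3). Stat2 stood at 5.98, 6.36 and 6.61 scaled TPM among wild-type libraries and 15.4, 14.6 and 17.2 among knockout libraries.

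Atf3, a stress-induced bZIP factor, stood at 1.25, 1.07 and 1.72 scaled TPM among wild-type libraries and 8.02, 8.96 and 7 among knockout libraries. It rose by 1.94 ± 0.13 (SE; limma adjusted p = 0.000281) on the log2 scale, and its highest wild-type value lay well below its lowest knockout value. Batf, an AP-1 family factor best known from lymphocytes, stood at 1.25, 1.61 and 1.74 scaled TPM among wild-type libraries and 5.9, 4.54 and 5.69 among knockout libraries. Its log2 change was 1.33 ± 0.12 (SE; limma adjusted p = 0.000631). Of 43 tested bZIP and AP-1 genes, 13 were called higher and 13 lower, and 4 of the higher ones reached 2-fold.

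The named falls among transcription factors were those of Nr4a1, Prrx2, Gli1, Meis2 and Tead3. Nr4a1, an immediate-early orphan nuclear receptor, stood at 9.64, 9.66 and 11.7 scaled TPM among wild-type libraries and 2.29, 4.3 and 2.01 among knockout libraries. Knockout library 2 was above the other knockout libraries but under every wild-type library, and the log2 change was -1.59 ± 0.23 (SE; limma adjusted p = 0.00253). Prrx2, a homeobox factor of mesenchyme, stood at 23.1, 27.6 and 25.5 scaled TPM among wild-type libraries and 8.88, 8.1 and 8.23 among knockout libraries, a log2 change of -1.49 ± 0.079 (SE; limma adjusted p = 0.000138). Meis2, a homeobox cofactor of HOX proteins, stood at 11.5, 10.5 and 13.4 scaled TPM among wild-type libraries and 3.51, 5.84 and 3.99 among knockout libraries and fell by 1.25 on the log2 scale (limma adjusted p = 0.00244).

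Gli1, both an effector and a target of hedgehog signalling, stood at 5.09, 4.5 and 4.52 scaled TPM among wild-type libraries and 0.927, 0.94 and 1.36 among knockout libraries. Its log2 change was -1.46 ± 0.1 (SE; limma adjusted p = 0.000309). Tead3, a DNA-binding partner of YAP and TAZ, stood at 8.16, 13.1 and 9.19 scaled TPM among wild-type libraries and 2.4, 2.84 and 6.63 among knockout libraries, with a wide spread in both groups. Its log2 change of -1.24 ± 0.34 (SE; limma adjusted p = 0.025) lost its call with no filter and without wild-type replicate 2 or 3 or knockout replicate 1 or 2 (adjusted p = 0.0516 to 0.0712). Of 36 tested homeobox genes outside the HOX clusters, 2 were higher and 17 lower, and of 25 other zinc finger factors, Gli1 among them, 4 were higher and 16 lower.

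**Figure D2:**
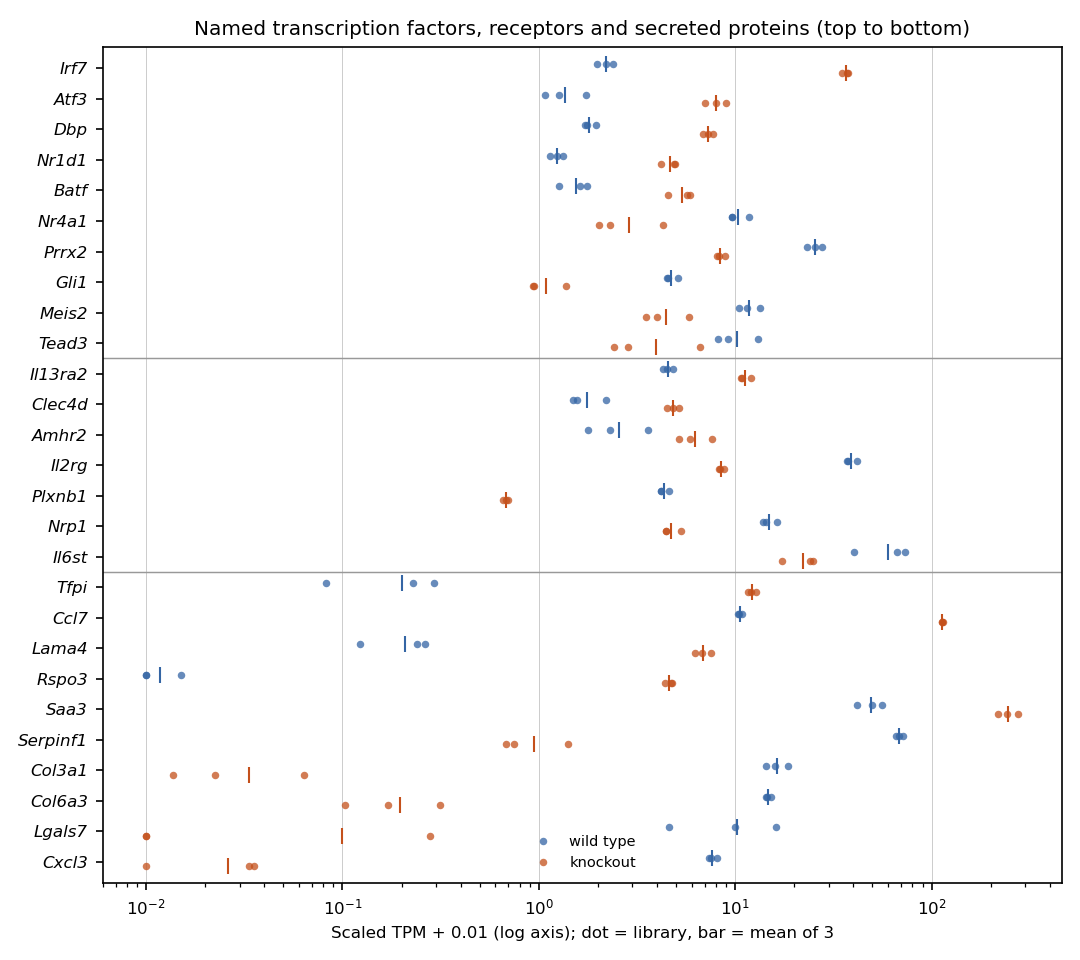
Scaled TPM + 0.01 (x axis, log scale) of the named transcription factors, receptors and secreted proteins, from top to bottom, with a dot for each library and a vertical bar for the mean of 3. Wild type is blue and knockout orange. Irf7 lies at 1.97 to 2.39 in wild type and 35.2 to 37.7 in the knockout, and the groups are separate in each of the genes drawn, as their selection requires.

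Both Dbp and Nr1d1 belong to the circadian clock, in which CLOCK and ARNTL (BMAL1) activate PER, CRY, NR1D and PAR bZIP genes, and PER, CRY and NR1D proteins repress in turn. Dbp, a PAR bZIP output factor, stood at 1.7, 1.95 and 1.75 scaled TPM among wild-type libraries and 7.22, 7.67 and 6.88 among knockout libraries. Nr1d1, the repressor REV-ERB alpha, stood at 1.13, 1.23 and 1.32 scaled TPM among wild-type libraries and 4.88, 4.91 and 4.16 among knockout libraries. Dbp rose by 1.56 ± 0.071 (SE; limma adjusted p = 9.11e-05) on the log2 scale and Nr1d1 by 1.34 ± 0.082 (SE; limma adjusted p = 0.000197). In both genes the spread within each group was small beside the gap between the groups.

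The remaining clock genes were listed after these values had been seen. Of 19 listed, 16 were tested, 5 were higher (31.2%) and 3 lower (18.8%), with a median log2 change of 0.13. Among all tested protein-coding genes the shares were 28.2% and 27.5%, so the count of calls in this list was not unusual. The activator Arntl stood at 10.8, 9.98 and 10.4 scaled TPM among wild-type libraries and 4.31, 4.42 and 4.13 among knockout libraries, a fall of 1.11 on the log2 scale (limma adjusted p = 0.000138). The NR1D paralog Nr1d2 (0.90) and the output factor Tef (1.11) rose, as did Per3 (0.38) from 0.481 to 0.921 scaled TPM. Rora, an activator of Arntl, fell (-0.59). The calls of Arntl, Nr1d2, Tef, Per3 and Rora, with those of Dbp and Nr1d1, held in all alternatives in which they were tested.

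Clock itself had a log2 change of -0.32 (limma adjusted p = 0.0404), with a call that was lost in 9 of 15 alternatives, among them each of 5 fits without 1 library (all but that without wild-type replicate 3). Per1 (0.15), Cry1 (-0.023), Bhlhe40 (0.058) and Nfil3 (0.0011) were not called. Per2 spread from 1.38 to 8.54 scaled TPM among wild-type libraries alone. The labels give no time of harvest, and whether the groups were harvested at the same time was not tested.

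**Figure D3:**
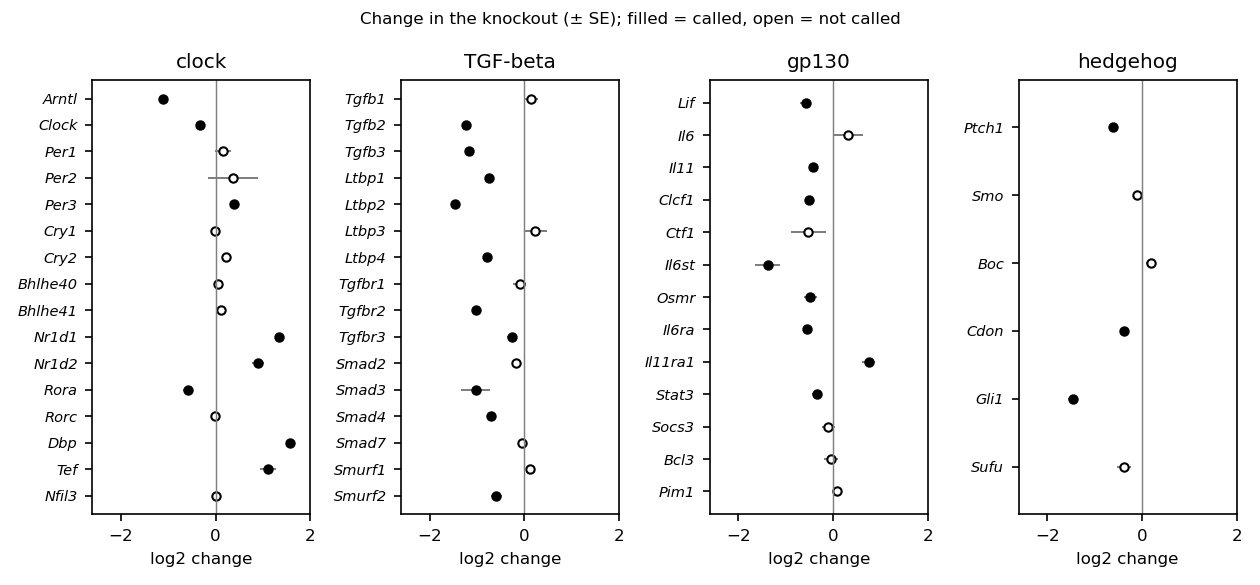
Log2 change in the knockout (x axis, ± SE) of tested members of 4 signalling lists that were chosen after values had been seen. Filled points were called and open points were not. In the clock panel Arntl lies at -1.11 and Dbp at 1.56, and in the TGF-beta panel 10 of 16 genes are called, all of them lower.

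Of the 19 receptors at least 2-fold lower, 4 were cytokine receptors and 5 guidance receptors. Il2rg, the common gamma chain shared by several interleukin receptors, stood at 37, 37.5 and 41.6 scaled TPM among wild-type libraries and 8.76, 8.3 and 8.41 among knockout libraries. Wild type held 4.56 times the knockout mean, with a log2 change of -2.06 ± 0.061 (SE; limma adjusted p = 2.24e-05). Il6st, the signal transducer gp130, stood at 73.3, 67 and 40.3 scaled TPM among wild-type libraries and 17.3, 24.9 and 24 among knockout libraries. Its lowest wild-type library, at 40.3, lay above all knockout libraries, and the log2 change was -1.38 ± 0.26 (SE; limma adjusted p = 0.00645). Ifnar1, a chain of the type I interferon receptor chosen after its values were seen, fell from 11.1 ± 1.44 to 4.8 ± 0.0943 scaled TPM (SD, n = 3), a log2 change of -1.06.

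Il13ra2, the decoy receptor of interleukin-13, rose, from 4.29, 4.82 and 4.5 scaled TPM in wild type to 12.1, 10.7 and 10.8 in the knockout, a log2 change of 1.14 ± 0.074 (SE; limma adjusted p = 0.000231). Clec4d, a C-type lectin of myeloid cells, stood at 2.2, 1.56 and 1.49 scaled TPM among wild-type libraries and 5.19, 4.84 and 4.49 among knockout libraries, a log2 change of 1.09 ± 0.12 (SE; limma adjusted p = 0.000978). Amhr2, the receptor of anti-Müllerian hormone, stood at 1.78, 2.3 and 3.59 scaled TPM among wild-type libraries and 7.58, 5.89 and 5.19 among knockout libraries, a log2 change of 1.04 ± 0.22 (SE; limma adjusted p = 0.00951). All 3 stood under 2-fold in TPM as deposited (0.93, 0.92 and 0.85).

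The gp130 pathway was followed through its members, listed after values had been seen. Its ligands include LIF, interleukin-6, interleukin-11 and CLCF1, and gp130 passes their signal to STAT3. Of 14 tested members, 1 was higher (7.14%) and 8 lower (57.1%), against 28.2% and 27.5% of all tested protein-coding genes. The median log2 change was -0.46 (-0.31 with the length trend removed).

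Among the ligands, Lif stood at 20.9, 22 and 23.5 scaled TPM among wild-type libraries and 14, 17.1 and 12.7 among knockout libraries, Clcf1 fell from 19.8 ± 0.491 to 13.6 ± 0.806 scaled TPM, and Il11 from 0.882 ± 0.104 to 0.396 ± 0.108 scaled TPM (SD, n = 3). On the log2 scale Lif fell by 0.58, Clcf1 by 0.51 and Il11 by 0.43. Il6 itself stood at 1.92, 1.77 and 2 scaled TPM among wild-type libraries and 3.18, 4.16 and 1.21 among knockout libraries, with groups that overlap, and was not called (limma adjusted p = 0.419). Without knockout replicate 3 it was called higher (0.69, adjusted p = 0.0104).

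Of the ligand-binding chains, Il6ra fell (-0.56) and Il11ra1 rose (0.75), from 11.6 ± 1.67 to 20.2 ± 2.64 scaled TPM. Osmr (-0.48) and Stat3 (-0.34) were called lower, and lost the call in 8 and 6 of 15 alternatives. Osmr lost it without wild-type replicate 1 or 2 or knockout replicate 1 or 3, and so did Stat3. The target genes Socs3 (-0.10), Bcl3 (-0.049) and Pim1 (0.089) were not called, although leaving out wild-type replicate 3 gave a call for Socs3 (-0.26, limma adjusted p = 0.0186).

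In a list of TGF-beta genes, those with a call were all lower. TGF-beta ligands are secreted in a latent form bound to LTBP proteins, signal through the receptors TGFBR1 and TGFBR2, and act through SMAD factors. Of 16 genes listed after values had been seen, 0 were called higher and 10 lower, 5 of them by at least 2-fold. The 10 are 62.5% of the list, against 27.5% called lower among all tested protein-coding genes. The median log2 change of the list was -0.65, and -0.50 with the length trend removed, where 1 was higher and 9 lower. Wider families sorted by symbol also held rises. Of 20 tested genes of the TGF-beta superfamily and its antagonists, 4 were higher and 11 lower. Of 10 TGF-beta and BMP receptors, 1 was higher and 6 lower. Tgfb2 stood at 2.6, 2.93 and 2.9 scaled TPM among wild-type libraries and 0.773, 0.659 and 0.467 among knockout libraries, and Tgfb3 at 10.2, 10.0 and 10.2 scaled TPM among wild-type libraries and 4.23, 3.9 and 3.8 among knockout libraries. Tgfb2 changed by -1.23 ± 0.092 and Tgfb3 by -1.16 ± 0.059 (SE; limma adjusted p = 0.000361 and 0.000128). The latent carrier Ltbp2 (-1.46, from 28.1 ± 1.69 to 9.56 ± 0.286 scaled TPM) and the receptor Tgfbr2 (-1.03, from 21.2 ± 1.55 to 9.85 ± 0.6 scaled TPM) fell in the same libraries.

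Tgfb1 stood at 20.9, 23.3 and 26.3 scaled TPM among wild-type libraries and 23, 23.7 and 31.8 among knockout libraries and was not called (0.14, limma adjusted p = 0.452). Tgfbr1 (-0.10), Smad2 (-0.18) and the inhibitor Smad7 (-0.041) were not called either. Smad4 (-0.71), Ltbp1 (-0.74), Ltbp4 (-0.78) and Smurf2 (-0.59) fell. Smad3 (-1.03) lost its call in 6 of 15 alternatives and Tgfbr3 (-0.27) in 9. For Smad3 these include the fits without wild-type replicate 1 or 2 and without knockout replicate 1 or 3, and for Tgfbr3 those without any wild-type replicate and without knockout replicate 1 or 3. The hedgehog list, also chosen after values were seen, had 6 tested genes. Of these, 0 were higher and 3 lower (50%), against 27.5% called lower among all tested protein-coding genes. The 3 were Gli1, the receptor Ptch1 (-0.60) and the co-receptor Cdon (-0.37). All 3 ligand genes of that pathway stayed under 0.5 TPM in every library.

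Axon guidance receptors and their cues are used outside the nervous system in cell migration and vessel growth. Of 10 tested guidance receptors, 1 was higher and 7 lower, 5 of them by at least 2-fold, with a median log2 change of -0.81 (-0.63 with the length trend removed). Plxnb1, a semaphorin receptor, stood at 4.58, 4.19 and 4.2 scaled TPM among wild-type libraries and 0.649, 0.688 and 0.673 among knockout libraries, a log2 change of -1.67 ± 0.063 (SE; limma adjusted p = 4.95e-05). Nrp1, a co-receptor of class 3 semaphorins and of VEGF, stood at 16.4, 14.4 and 13.9 scaled TPM among wild-type libraries and 4.44, 5.26 and 4.41 among knockout libraries, a log2 change of -1.48 ± 0.092 (SE; limma adjusted p = 0.00021). Unc5b (-1.22), Plxnd1 (-1.19) and Plxna1 (-1.06) were the other 3, named after their values were seen. Of 9 tested cues, 0 were higher and 7 lower. The cues that fell at least 2-fold were Slit2 (-1.68), the ligand of ROBO receptors, Sema3b (-1.27) and Rgmb (-1.17), also named after their values were seen. The median exon length of the guidance receptors, 8298 nt, is above that of all protein-coding genes.

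Other receptor families also leaned lower. Of 7 tested adhesion G protein-coupled receptors, 0 were higher and 6 lower, with 3 at least 2-fold lower: Adgrg6 (-1.38), Adgrl1 (-1.18) and Adgrf5 (-1.16). Of 9 Frizzled, Smoothened and LGR receptors, 0 were higher and 7 lower, none by 2-fold. Of 21 receptor tyrosine kinases, 1 was higher and 12 lower, and Egfr, the receptor of epidermal growth factor, fell from 3.23 ± 0.672 to 1.1 ± 0.263 scaled TPM (SD, n = 3), a log2 change of -1.01. Members named here were chosen after their values were seen. The shares called lower in these 3 families, in the same order, were 85.7%, 77.8% and 57.1%, against 27.5% of all tested protein-coding genes. With the length trend removed, 6, 7 and 10 of their members were lower, and 2, 0 and 0 by at least 2-fold. Toll-like and C-type lectin receptors had 3 higher and 3 lower of 11, and TNF receptors had 2 higher and 3 lower of 15.

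Serpinf1 (pigment epithelium-derived factor, a serpin without inhibitor activity that restrains vessel growth; chromosome 11, 75409769 to 75422701) stood at 65.9, 68.4 and 71.4 scaled TPM among wild-type libraries and 0.734, 0.67 and 1.39 among knockout libraries. Wild type held 73.5 times the knockout mean, a log2 change of -5.19 ± 0.15 (SE; limma adjusted p = 1.76e-05). This was the largest fall among the named genes on the log2(scaled TPM + 1) scale, but with a pseudocount of 0.1 the falls of Padi4 (-7.34) and Col3a1 (-7.06) exceeded that of Serpinf1 (-6.12). Tfpi, which inhibits the start of coagulation, went the other way and stood at 0.282, 0.22 and 0.0722 scaled TPM among wild-type libraries and 12.8, 11.6 and 12.1 among knockout libraries. Its log2 change was 3.47 ± 0.089 (SE; limma adjusted p = 1.38e-05). Of 21 tested serpins and protease inhibitors, 12 were higher and 5 lower, and 7 and 1 reached 2-fold. Slpi, Cst6 and Cst3, inhibitors of serine and cysteine proteases, were among the 7, with log2 changes of 1.75, 2.18 and 1.24. These counts were 11 and 6 in TPM as deposited and 12 and 6 with the length trend removed.

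Chemokines changed in both directions. Ccl7, which attracts monocytes, stood at 10.3, 10.8 and 10.5 scaled TPM among wild-type libraries and 113, 114 and 113 among knockout libraries. Its 10.8-fold higher mean had little spread between libraries, with a log2 change of 3.31 ± 0.038 (SE; limma adjusted p = 2.92e-06). Cxcl3, which attracts neutrophils, stood at 7.31, 8.06 and 7.53 scaled TPM among wild-type libraries and 0.0255, 0.0233 and 0 among knockout libraries, a log2 change of -3.09 ± 0.064 (SE; limma adjusted p = 1.11e-05). Of 15 tested chemokines, 8 were higher and 3 lower. Those at least 2-fold higher were Ccl7, Ccl2 (from 45.5 ± 1.4 to 175 ± 12.2 scaled TPM), Ccl5 (from 3.62 ± 1.35 to 15.3 ± 1.15 scaled TPM), Ccl8 and Cxcl10, and those at least 2-fold lower were Cxcl3 and Cxcl2 (from 4.56 ± 0.715 to 0.199 ± 0.047 scaled TPM; SD, n = 3 in each). The members other than Ccl7 and Cxcl3 were named after their values were seen.

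Of 55 complement, apolipoprotein and acute-phase genes, 24 were higher and 15 lower. In TPM as deposited they counted 19 and 22, where all 11104 tested protein-coding genes counted 1681 higher and 5111 lower. Saa3, an acute-phase protein made outside the liver, stood at 41.5, 55.9 and 49.8 scaled TPM among wild-type libraries and 277, 219 and 241 among knockout libraries, a log2 change of 2.30 ± 0.13 (SE; limma adjusted p = 0.00017). Hp (haptoglobin, 1.23), Orm1 (1.02) and S100a8 (1.31) rose as well, and were named after their values were seen. Lgals7, a galectin of stratified epithelia, stood at 4.58, 16.2 and 10.0 scaled TPM among wild-type libraries and 0, 0 and 0.269 among knockout libraries. Its wild-type values spread more than 3-fold, and the log2 change was -3.23 ± 0.4 (SE; limma adjusted p = 0.00162).

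Collagens mostly fell. Col3a1, a fibrillar collagen, stood at 14.3, 15.9 and 18.5 scaled TPM among wild-type libraries and 0.00368, 0.0536 and 0.0125 among knockout libraries. Col6a3, a chain of the beaded filament collagen VI, stood at 14.5, 14.4 and 15.2 scaled TPM among wild-type libraries and 0.0931, 0.303 and 0.161 among knockout libraries. The fall of Col3a1 was -4.07 ± 0.1 (SE; limma adjusted p = 1.38e-05) on the log2 scale and that of Col6a3 -3.73 ± 0.084 (SE; limma adjusted p = 1.24e-05). The partner chains of collagen VI, Col6a1 (-2.11) and Col6a2 (-2.76), fell too. Col1a1 stood at 179, 188 and 184 scaled TPM among wild-type libraries and 53.5, 59.9 and 56.8 among knockout libraries, and Col1a2, with which it forms collagen I, fell less (-0.58). Of 18 tested collagens, 1 was higher and 12 lower, with the same count higher in TPM as deposited and 2 higher and 11 lower with the length trend removed.

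Lama4, a laminin chain of vessel and muscle basement membranes, stood at 0.252, 0.23 and 0.113 scaled TPM among wild-type libraries and 6.25, 6.74 and 7.49 among knockout libraries, a log2 change of 2.71 ± 0.089 (SE; limma adjusted p = 3.14e-05). Lama5, the epithelial laminin chain, fell from 50.8 ± 8.22 to 8.29 ± 0.723 scaled TPM (SD, n = 3), a log2 change of -2.47. Dcn (decorin) rose (1.44) and Cthrc1 fell (-1.35). Rspo3, which strengthens Wnt signalling through LGR receptors, stood at 0.0051, 0 and 0 scaled TPM among wild-type libraries and 4.73, 4.7 and 4.4 among knockout libraries, so that it was listed at 0 or nearly so in wild type. Its log2 change was 2.49 ± 0.06 (SE; limma adjusted p = 1.37e-05). The Wnt ligands Wnt10a (-2.15) and Wnt7b (-1.65) fell, from 10.6 ± 1.02 to 1.61 ± 0.177 scaled TPM and 22 ± 1.3 to 6.33 ± 0.325 scaled TPM respectively. Genes other than Lama4 and Rspo3 in this paragraph were named after their values were seen.

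Adhesion genes and membrane transporters leaned lower. Of 67 adhesion genes, 14 were higher and 32 lower (6 and 40 in TPM as deposited, 15 and 28 with the length trend removed). Cntn1, a contactin of neural membranes, stood at 1.55, 1.66 and 1.47 scaled TPM among wild-type libraries and 24.9, 22.5 and 21.7 among knockout libraries. The mean rose 14.8-fold, with a log2 change of 3.23 ± 0.073 (SE; limma adjusted p = 1.24e-05). Pcdh10, a protocadherin, stood at 1.29, 0.227 and 1.38 scaled TPM among wild-type libraries and 7.55, 6.59 and 7.96 among knockout libraries. The neural markers, 4 in number, summed to 8.68 to 9.06 scaled TPM in wild type and 5.29 to 5.65 in the knockout, and their part in the rise of Cntn1 was not tested. Pcdh10 rose by 2.15 ± 0.27 (SE; limma adjusted p = 0.0016) on the log2 scale.

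Itgb3, the beta chain of the vitronectin receptor, stood at 4.96, 4.63 and 5.27 scaled TPM among wild-type libraries and 0.435, 0.443 and 0.431 among knockout libraries, a log2 change of -2.05 ± 0.066 (SE; limma adjusted p = 3.12e-05). Flrt2, a membrane ligand of UNC5 and latrophilin receptors, fell from 3.42 ± 0.298 to 0.48 ± 0.0325 scaled TPM, and Itgb4, the hemidesmosome integrin chain, from 14.9 ± 3.1 to 5.93 ± 1.69 scaled TPM (SD, n = 3). These are log2 changes of -1.58 and -1.21.

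Of 111 ion channels and pumps, 15 were higher and 58 lower (7 and 71 in TPM as deposited, 15 and 47 with the length trend removed). Atp13a4, a P5-type transport ATPase, stood at 0.0866, 0.0737 and 0.0634 scaled TPM among wild-type libraries and 3.77, 4.39 and 6.43 among knockout libraries, a log2 change of 2.42 ± 0.17 (SE; limma adjusted p = 0.000278). Pkd1 (polycystin-1) stood at 67.4, 42.3 and 64.1 scaled TPM among wild-type libraries and 16.8, 25 and 22.8 among knockout libraries, a log2 change of -1.38 ± 0.22 (SE; limma adjusted p = 0.00392). Itpr3, a calcium release channel of the endoplasmic reticulum, fell from 24 ± 4.61 to 9.27 ± 0.141 scaled TPM (-1.27), and Atp2b4, a calcium pump of the plasma membrane, from 5.45 ± 1 to 1.82 ± 0.803 scaled TPM (-1.23; SD, n = 3).

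Of 163 solute carriers, 24 were higher and 80 lower, 0 at least 2-fold higher and 5 at least 2-fold lower. Slco2a1, which takes up prostaglandins, stood at 5.04, 4.51 and 4.83 scaled TPM among wild-type libraries and 1.42, 1.48 and 1.35 among knockout libraries, a log2 change of -1.26 ± 0.066 (SE; limma adjusted p = 0.000136). Slc44a3, a choline transporter-like protein, fell from 4.37 ± 0.305 to 1.06 ± 0.369 scaled TPM and Slc7a7, an exchanger of basic amino acids, from 3.34 ± 0.269 to 0.995 ± 0.1 scaled TPM (SD, n = 3). In TPM as deposited the solute carriers counted 14 higher and 108 lower, and with the length trend removed 22 and 73.

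Of 302 signalling regulators, 75 were higher and 96 lower (32 and 159 in TPM as deposited, 69 and 83 with the length trend removed), with 5 at 2-fold each way. Zbp1, a sensor of Z-form nucleic acid, stood at 1.01, 1.03 and 1.19 scaled TPM among wild-type libraries and 11.4, 10.7 and 10.8 among knockout libraries, and Xaf1, a partner of the apoptosis inhibitor XIAP, at 9.56, 10.3 and 11.6 scaled TPM among wild-type libraries and 48.9, 53.1 and 54 among knockout libraries. Both are also induced by interferon, and their log2 changes were 2.53 ± 0.066 and 2.21 ± 0.08. Rgs2, which shortens G protein signals, rose by 1.26 ± 0.17 (SE; limma adjusted p = 0.00235), and Rgs11, of the same family, fell from 3.11 ± 0.376 to 0.793 ± 0.218 scaled TPM (-1.20). Arhgap29, a brake on RHOA, stood at 4.14, 3.74 and 3.55 scaled TPM among wild-type libraries and 0, 0 and 0.0126 among knockout libraries, and Cdc42ep5, an effector of CDC42, at 3.34, 4.57 and 3.61 scaled TPM among wild-type libraries and 0.231, 0.0923 and 0.0569 among knockout libraries. Knockout values of Arhgap29 were at or near 0, and the log2 changes were -2.26 ± 0.07 and -2.10 ± 0.12 (SE).

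Metabolic enzymes counted 50 higher and 31 lower of 122. In TPM as deposited they counted 39 and 40, where all 11104 tested protein-coding genes counted 1681 higher and 5111 lower. Fabp4, a fatty acid-binding protein typical of adipocytes and macrophages (chromosome 3, 10204088 to 10208576), stood at 0.0894, 0.0275 and 0.0872 scaled TPM among wild-type libraries and 59.1, 51.7 and 51.5 among knockout libraries. Its log2 change of 5.69 ± 0.076 (SE; limma adjusted p = 3.45e-06) was the largest rise among the named genes on the log2(scaled TPM + 1) scale, and also with a pseudocount of 0.1 (8.35). The summed level of 10 adipocyte markers rose from 0.75 to 0.878 in the wild-type libraries to 52.7 to 60.4 in the knockout libraries, and Fabp4 supplied nearly all of it: the other 9 stayed under 1 TPM in every library. Adipoq reached at most 0.123, and Cidec, Lep and Cfd were at 0 throughout.

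Akr1c18, which inactivates progesterone, stood at 2.18, 2.37 and 2.54 scaled TPM among wild-type libraries and 17.5, 15 and 15.4 among knockout libraries, and Ces1g, a carboxylesterase, at 0.48, 0.581 and 0.527 scaled TPM among wild-type libraries and 4.31, 4.18 and 3.97 among knockout libraries, with log2 changes of 2.33 and 1.75. Plin2, the coat protein of lipid droplets named after its values were seen, stood at 187, 186 and 195 scaled TPM among wild-type libraries and 399, 397 and 386 among knockout libraries. Padi4, which converts arginine in proteins to citrulline, stood at 18.9, 21.1 and 20.3 scaled TPM among wild-type libraries and 0.0473, 0.00866 and 0.0214 among knockout libraries, a log2 change of -4.36 ± 0.067 (SE; limma adjusted p = 5.23e-06). Its paralog Padi1 fell as well (-1.43). Arg2, the mitochondrial arginase, fell from 7.25 ± 0.342 to 2.69 ± 0.42 scaled TPM (-1.16), and Aldh1l2, a mitochondrial folate enzyme, from 19.8 ± 2.13 to 7.77 ± 1.59 scaled TPM (-1.25). Aldh1l1, its cytosolic counterpart named after its values were seen, rose from 5.61 ± 2.04 to 18.8 ± 0.57 scaled TPM (1.63; SD, n = 3).

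Cytoskeletal genes counted 44 higher and 38 lower of 128, with 3 and 15 at 2-fold. In TPM as deposited they counted 26 and 60, and all 11104 tested protein-coding genes leaned lower there as well (1681 and 5111). Of 13 tested keratins and other intermediate filaments, 3 were higher and 9 lower. Krt14, a basal epithelial keratin, stood at 32.2, 33.6 and 34.7 scaled TPM among wild-type libraries and 4.19, 3.98 and 4.64 among knockout libraries, a log2 change of -2.71 ± 0.067 (SE; limma adjusted p = 1.38e-05). Krt8 rose (0.39) while its usual partner Krt18 fell (-0.94), from 33.3 ± 3.53 to 16.8 ± 1.3 scaled TPM (SD, n = 3). Krt8 lost its call in 1 of 15 alternatives. Tagln (transgelin), an actin-binding protein of smooth muscle, stood at 5.19, 3.54 and 3.1 scaled TPM among wild-type libraries and 0.0286, 0.0532 and 0.0492 among knockout libraries, a log2 change of -2.22 ± 0.16 (SE; limma adjusted p = 0.000304). The other smooth muscle markers differed among themselves: Cnn1 fell (-1.38), Acta2 rose (0.54), and Myh11, Des and Rgs5 stayed under 1 TPM. These 5 markers summed to 268 to 295 scaled TPM in wild type and 395 to 422 in the knockout, and their part in the fall of Tagln was not tested.

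Stmn1, which destabilises microtubules, and Tubb2a, a beta-tubulin, rose from 94.4 ± 8 to 196 ± 8.47 scaled TPM and from 97.3 ± 4.27 to 202 ± 10.7 scaled TPM (SD, n = 3), each by 1.05 on the log2 scale. In TPM as deposited both were at 0.81. Myh14, a nonmuscle myosin, rose by 1.12 ± 0.13 (SE; limma adjusted p = 0.00131). Syt8, a synaptotagmin, stood at 14.1, 14.6 and 16.1 scaled TPM among wild-type libraries and 2.01, 5.37 and 1.88 among knockout libraries, a log2 change of -2.06 ± 0.31 (SE; limma adjusted p = 0.00317). The placental hormone gene Prl2c2 (proliferin) rose from 39 ± 2.86 to 243 ± 23.6 scaled TPM, but it has near-identical copies among which reads may have been split, so its level is uncertain. Of 6 tested imprinted genes, 2 were higher and 2 lower.

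Interferon-induced genes formed the class with the largest share of rises. Interferons bind surface receptors and act through a complex that includes STAT2 and IRF9 on an element of DNA known as the ISRE. Of 112 tested genes of the interferon-induced, TRIM and PARP family, 73 were higher and 13 lower, and 34 and 1 reached 2-fold. The balance held in TPM as deposited (59 and 27) and with the length trend removed (72 and 15). Ifi27l2a stood at 0.27, 0.415 and 0.439 scaled TPM among wild-type libraries and 23.9, 21.8 and 22.8 among knockout libraries. Usp18, which removes ISG15 from proteins and damps receptor signalling, stood at 0.209, 0.289 and 0.388 scaled TPM among wild-type libraries and 18.5, 18.1 and 19.8 among knockout libraries. Rtp4, a chaperone of membrane receptors that is induced by interferon, stood at 2.28, 2.78 and 1.89 scaled TPM among wild-type libraries and 45.7, 45.7 and 48.7 among knockout libraries. The rises of Ifi27l2a, Usp18 and Rtp4 were 4.12 ± 0.077, 3.94 ± 0.078 and 3.85 ± 0.11 on the log2 scale (SE; limma adjusted p = 9.55e-06, 9.74e-06 and 1.68e-05).

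All 3 tested leukocyte markers were called higher: Cd68, Coro1a and Cd14, the last losing its call in 10 of 15 alternatives. The other 6 of 9, Ptprc among them, stayed under 1 TPM in every library. The summed level of all 9 was 45.2 to 49.5 scaled TPM in wild type and 88.5 to 96.1 in the knockout. Cd68 supplied most of this rise, from 21.9 ± 2.15 to 60.8 ± 4.35 scaled TPM. Coro1a went from 1.99 ± 0.0855 to 5.57 ± 0.147 and Cd14 from 23.2 ± 0.46 to 25.7 ± 0.765 scaled TPM (SD, n = 3). The part of these markers in the result for interferon-induced genes was not tested. All 5 endothelial markers stayed under 1 TPM throughout.

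Promoter sequence was compared with these calls, using RefSeq promoters of GRCm38.p6 that run from 250 bases before to 50 after a gene's start. Symbols matched for 178 of the 313 genes called at least 2-fold higher and for 184 of the 334 called at least 2-fold lower. The ISRE core was searched as GAAANNGAAA on either strand. It was found in 17.5% of 211 promoters of the former, in 3.91% of 256 of the latter, in 3.12% of 11689 promoters of tested genes and in 3.44% of all 32851 promoters in the table. A match is a description and does not show binding. The sequences below stand before the start of genes that rose at least 2-fold, with the matches in capitals, and are printed because this motif differed most in share between the sets. Each is read 5′ to 3′ on the strand of its gene, so that a match on the other strand appears as the reverse complement. Isg15, Ifit1, Ifit3 and Oas1a are interferon-induced genes, Stat2 carries the signal, B2m and H2-T22 belong to class I antigen presentation, Cxcl10 and Saa3 are secreted, and Ppp1r15a is a stress-response gene.

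Isg15: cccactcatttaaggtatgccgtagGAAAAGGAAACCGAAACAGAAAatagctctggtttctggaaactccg
Ifit1: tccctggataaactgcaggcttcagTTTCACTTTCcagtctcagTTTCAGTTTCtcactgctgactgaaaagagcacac
Ifit3: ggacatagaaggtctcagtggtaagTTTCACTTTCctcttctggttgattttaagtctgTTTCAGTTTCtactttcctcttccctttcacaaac
Oas1a: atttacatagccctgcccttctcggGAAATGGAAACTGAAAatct
Stat2: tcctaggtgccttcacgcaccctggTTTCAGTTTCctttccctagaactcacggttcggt
B2m: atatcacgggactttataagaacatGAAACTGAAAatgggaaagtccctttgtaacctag
H2-T22: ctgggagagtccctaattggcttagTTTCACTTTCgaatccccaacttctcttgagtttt
Cxcl10: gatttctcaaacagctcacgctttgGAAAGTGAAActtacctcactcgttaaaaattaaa
Saa3: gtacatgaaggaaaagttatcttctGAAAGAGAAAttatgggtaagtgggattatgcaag
Ppp1r15a: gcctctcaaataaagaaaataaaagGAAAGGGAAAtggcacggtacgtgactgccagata

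These stretches lie, in the same order, at chr4:156200850-156200921, minus strand; chr19:34640760-34640838, plus strand; chr19:34583348-34583441, plus strand; chr5:120907526-120907570, minus strand; chr10:128270251-128270310, plus strand; chr2:122147523-122147582, plus strand; chr17:36042899-36042958, minus strand; chr5:92349068-92349127, minus strand; chr7:46715767-46715826, minus strand; and chr7:45526454-45526513, minus strand. In Isg15, whose protein is conjugated to others, 3 matches overlap in a single block, and in Ifit1, which binds foreign RNA, 2 stand apart. Isg15 had a log2 change of 2.68. Ifit1 stood at 0.744, 0.715 and 0.715 scaled TPM among wild-type libraries and 8.85, 8.73 and 8.53 among knockout libraries. Ifit3 rose from 0.249 ± 0.0596 to 3.73 ± 0.176 scaled TPM, Oas1a from 5.55 ± 0.596 to 33.9 ± 1.83 scaled TPM, H2-T22 from 36.7 ± 1.85 to 85.3 ± 2.9 scaled TPM and Cxcl10 from 0.238 ± 0.0485 to 1.81 ± 0.475 scaled TPM (SD, n = 3). B2m, the light chain of class I molecules and the most abundant gene shown, stood at 722, 781 and 752 scaled TPM among wild-type libraries and 1737, 1584 and 1537 among knockout libraries, a log2 change of 1.11. Ppp1r15a, which ends the integrated stress response, rose from 16.7 ± 2.07 to 42.3 ± 5.09 scaled TPM (SD, n = 3).

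Of 32 genes called at least 2-fold higher with an ISRE match, 18 belong to the interferon-induced, TRIM and PARP family and 14 do not. That family was sorted by symbol, so the 14 can include other genes that interferon induces. Stat2, B2m, H2-T22 and Cxcl10, shown above, are among the 14. Oas1a and Oas1g, Ifit3 and Ifit3b, and Apol9a and Apol9b are near-identical pairs, so their separate levels are uncertain. Other motifs differed less. The TATA box (TATAAA) was found in 16.1% of promoters of genes at least 2-fold higher, 11.3% of those at least 2-fold lower and 7.04% of all tested genes. For the AP-1 site (TGANTCA) the shares were 10.4%, 8.98% and 5.37%, so that both changed sets stood above all tested genes. For the cAMP element (TGACGTCA) they were 2.84%, 1.56% and 3.09%, for the E-box (CACGTG), which the clock factors bind, 11.4%, 7.42% and 9.98%, and for the serum response element 0.948%, 1.17% and 1.21%. Over all 32851 promoters the TATA box stood at 13.6%, above the genes at least 2-fold lower, and the AP-1 site at 7.81%. The cAMP element stood there at 1.79%, the E-box at 7.15% and the serum response element at 1.63%. All motifs were searched on either strand, and a serum response element can contain the letters of the TATA box. No match says only that these letters are not in this window.

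Some genes were at or near 0 in one group only. Genes were described as switched on where every wild-type library was under 0.5 and every knockout library at or above 2 scaled TPM, and as switched off in the reverse case. Of 13499 genes, 29 (0.215%) were switched on, 19 of them protein-coding, and 45 (0.333%) off, 27 of them protein-coding. Without wild-type replicate 3, 69 were switched off. Genes with under 300 nt of exons, whose TPM is unreliable, made up 8 and 13 of these. Of the protein-coding genes switched on, the 8 with the highest mean were Fabp4, Ifi27l2a, Usp18, Tfpi, Lama4, Oas2, Atp13a4 and Phf11b. Oas2, a sensor of double-stranded RNA, stood at 0.221, 0.24 and 0.236 scaled TPM among wild-type libraries and 5.77, 5.29 and 5.6 among knockout libraries, and Phf11b, a PHD finger protein, at 0.216, 0.302 and 0.347 scaled TPM among wild-type libraries and 4.71, 4.77 and 4.39 among knockout libraries. All 8 were called, and Oas2 and Phf11b by 2.41 and 2.13 on the log2 scale.

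Among the protein-coding genes switched off, the 8 with the highest mean were Padi4, Col3a1, Col6a3, Lgals7, Cryaa, Cxcl3, Trp53i11 and Plac8. Cryaa, a chaperone first known from the lens, stood at 8.87, 9.63 and 9.96 scaled TPM among wild-type libraries and 0.195, 0.451 and 0.176 among knockout libraries, a log2 change of -3.05 ± 0.1 (SE; limma adjusted p = 3.66e-05). Trp53i11, a p53-inducible gene, stood at 7.12, 7.68 and 7.5 scaled TPM among wild-type libraries and 0.376, 0.29 and 0.45 among knockout libraries, and Plac8, a small cysteine-rich protein of placenta and myeloid cells, at 8.47, 7.52 and 6.19 scaled TPM among wild-type libraries and 0.318, 0.403 and 0.401 among knockout libraries. Trp53i11 changed by -2.62 on the log2 scale. Named after their values were seen, Cyba, a subunit of NADPH oxidase, stood at 3.24, 4.42 and 4.12 scaled TPM among wild-type libraries and 0, 0.0421 and 0 among knockout libraries, Mapk13, a p38 kinase, at 2.4, 2.08 and 2.31 scaled TPM among wild-type libraries and 0, 0.0204 and 0 among knockout libraries, and Igf2r, an imprinted receptor that clears IGF2, at 2.71, 2.48 and 2.53 scaled TPM among wild-type libraries and 0.283, 0.232 and 0.227 among knockout libraries. Rcn3 and Sdr39u1 were listed at 0 in all 3 knockout libraries, against 6.4 to 7.44 and 5.25 to 6.07 scaled TPM in wild type.

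**Figure D4:**
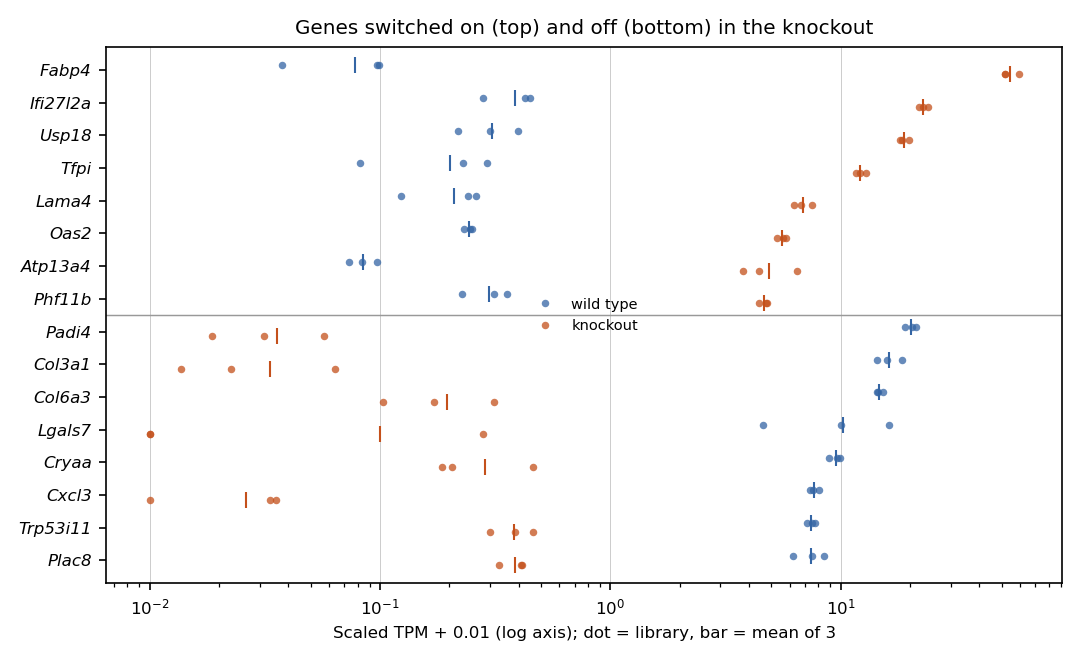
Scaled TPM + 0.01 (x axis, log scale) of the 8 switched-on genes (top) and 8 switched-off genes (bottom) with the highest means, a dot for each library and a bar for the mean of 3, wild type in blue and knockout in orange. Fabp4 lies at 0.0275 to 0.0894 in wild type and 51.5 to 59.1 in the knockout. The wild-type values of Lgals7 run from 4.58 to 16.2.

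In absolute terms the largest gains were in abundant transcripts. By difference of means, Actb gained 3749 scaled TPM, Ftl1 3343, Rpl13a 2706, S100a4 2137, Rpl41 1817 and Slpi 1626. In TPM as deposited the gains were smaller, at 2026 for Actb, 2453 for Ftl1, 1555 for Rpl13a, 1200 for S100a4, 1173 for Rpl41 and 1384 for Slpi, so that Ftl1 came first among the 6. Actb encodes beta-actin, Ftl1 ferritin light chain, Rpl13a and Rpl41 ribosomal proteins, S100a4 a calcium-binding protein and Slpi a protease inhibitor. Slpi stood at 615, 718 and 733 scaled TPM among wild-type libraries and 2609, 2087 and 2249 among knockout libraries and was the only one of the 6 that changed at least 2-fold. Actb lost its call with quantile normalization and with no filter, and S100a4 lost it once the length trend was taken out (0.039, limma adjusted p = 0.42).

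The largest losses in scaled TPM were those of Hsp90b1, Hmga1b, Hnrnph1, Hsp90aa1, Ywhaz and Eef1a1. Hsp90b1, the chaperone of the endoplasmic reticulum, fell from 1549 ± 111 to 1006 ± 115 scaled TPM, a log2 change of -0.63 ± 0.096 (SE; limma adjusted p = 0.00336). Ywhaz, a 14-3-3 protein, fell from 535 ± 43.7 to 340.0 ± 45.2 scaled TPM (-0.66), and Hnrnph1, a splicing regulator, from 831 ± 40.4 to 604 ± 11.7 scaled TPM (-0.46; SD, n = 3). Hsp90aa1 (-0.13, limma adjusted p = 0.122) and Eef1a1 (-0.043, limma adjusted p = 0.42) were not called. Their losses depend on the scaling: in TPM as deposited Eef1a1 had a difference of means of -1291 against -193 scaled, Hsp90aa1 of -605 against -215 and Hsp90b1 of -759 against -543. There Eef1a1 (-0.28, limma adjusted p = 0.00165) and Hsp90aa1 (-0.37, limma adjusted p = 0.00675) were called lower. Hmga1b has a near-identical paralog, so its level is uncertain.

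Neighbouring genes moved together in parts of several chromosomes. Runs of at least 8 consecutive tested protein-coding genes called the same way numbered 7 for higher and 8 for lower calls, holding 0.648% and 0.765% of tested protein-coding genes. In TPM as deposited they numbered 1 and 36. Chromosome 17 held 4 of the lower runs. The run at 28331671 to 29007995 of chromosome 17 (GRCm38) had 9 genes with a median log2 change of -0.84, among them Tead3, Mapk13 and the kinase genes Srpk1, Mapk14 and Stk38. Another at 15543079 to 21664966 had 16 genes, 9 of them zinc finger genes of the Zfp series, with a median of -0.58. A run of 13 genes on chromosome 3 at 103279293 to 104786018, from Trim33 to Ppm1j, had a median of -0.72. The higher runs on chromosomes 1, 5 and 13 consist largely of the Ifi, Oas and histone gene clusters, whose members are similar in sequence.

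The median of all tested protein-coding genes of a chromosome was lowest on 17 among the autosomes (-0.25) and highest on 8 (0.19) and 4 (0.17). In windows of 25 genes, chromosome 17 split into parts. Its first 300 tested genes in order, from Scaf8 to Ddah2 (3114972 to 35062095), had a median log2 change of -0.46, with quartiles at -0.72 and -0.17. Of these, 9 were called higher and 190 lower (63.3%), and 259 (86.3%) were below 0. The other 262 genes of the chromosome had a median of -0.043, with 73 higher and 83 lower. The bounds of this and the following stretches were read from the windows after these were seen, so the contrast with other genes of each chromosome is a description only.

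On chromosome 3, 150 genes from Gpr89 to Cenpe (96868281 to 135273611) had a median of -0.38, against 0.079 for the 330 genes before them. The genes after Cenpe were in neither set. On chromosome 13, the last 58 genes from Ak6 on (100650979 to 120308779) had a median of -0.47, against 0.13 for the genes before them. Chromosome 4 showed the reverse: 503 genes from Atp6v1g1 to Noc2l (63544772 to 156247616) had a median of 0.25, with 252 higher and 49 lower, and the 190 before them a median of -0.045. With the length trend removed the medians of the 4 stretches were -0.47, -0.30, -0.35 and 0.23, and in TPM as deposited -0.64, -0.57, -0.61 and 0.046.

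The 3 lower stretches held 508 of 11104 tested protein-coding genes, 323 (10.6%) of the 3049 called lower and 41 (16.9%) of the 243 at least 2-fold lower. The named genes among them were Arhgap29, Cryaa, Il6st, Itpr3, Pkd1, Rgs11, Slc44a3 and Tead3. Of the genes called lower, 9 of 121 transcription factors, 3 of 91 receptors and 8 of 115 secreted proteins lie there. All 9 transcription factors tested in these stretches were called lower. Of the genes at least 2-fold lower, the stretches held 3 of 6 ion channels and pumps, 3 of 5 solute carriers and 3 of 5 signalling regulators. Igf2r and Mapk13, given above, lie in the chromosome 17 stretch as well. The part of position in the changes of these genes was not tested. DNA was not measured in the files used here.

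**Figure D5:**
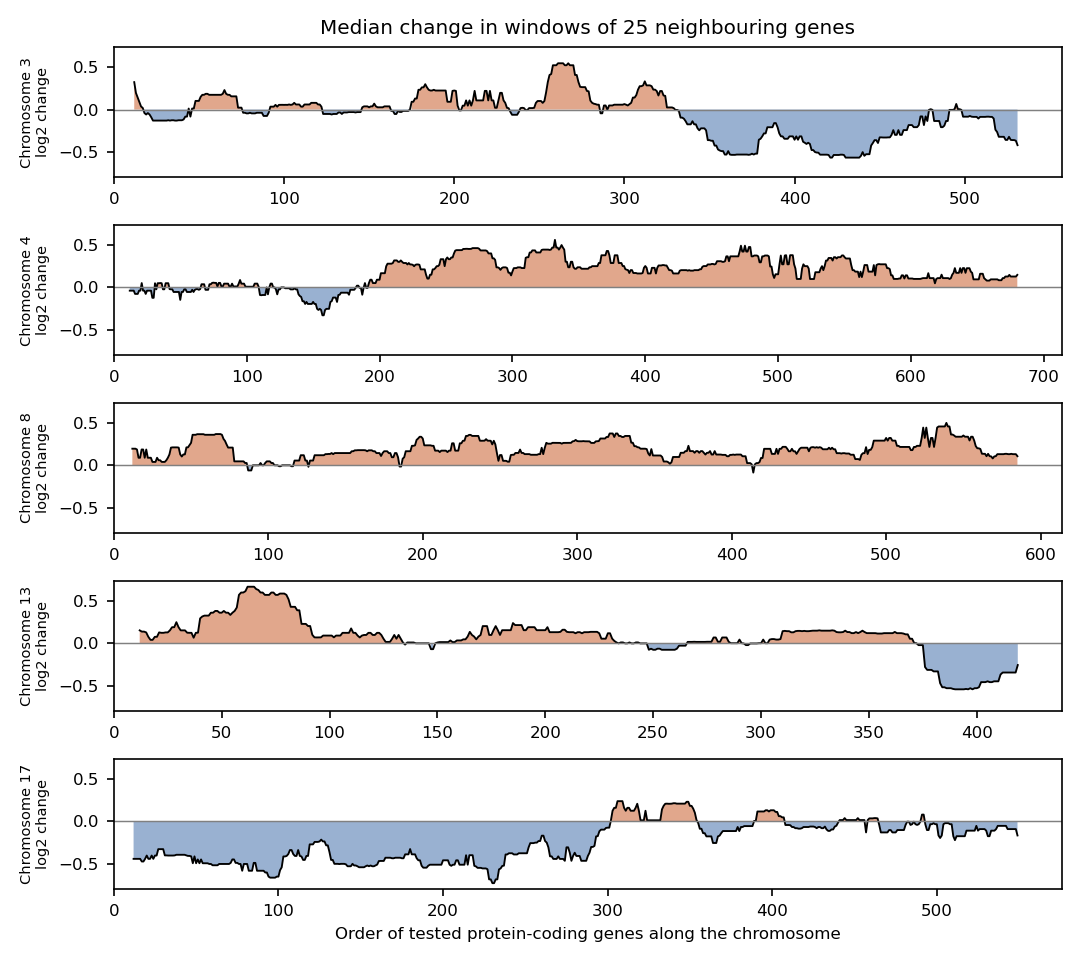
Median log2 change (y axis) in windows of 25 neighbouring tested protein-coding genes, by the order of genes along chromosomes 3, 4, 8, 13 and 17 (x axis), with orange above 0 and blue below 0. The first 300 genes of chromosome 17 lie mostly below 0, with a lowest window of -0.73, and the line returns to near 0 beyond them.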

How the data were processed

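Transcript levels of 3 wild-type and 3 PFKFB4-knockout EMT6 libraries were taken from the TPM table that the authors deposited. TopHat2 2.1.1, CASAVA 1.8.2, Subread 1.6.4, featureCounts and the build mm10 are named per the submitters' processing notes. How they were set, strand included, is not given in the sources, so overlapping and antisense genes cannot be told apart. TPM keeps no depth, and read numbers are unknown.

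Genes needed at least 0.5 TPM as deposited in 3 of 6 libraries. Each library was divided by its median ratio to the gene-wise geometric mean. The test was limma 3.58.1 (R 4.3.3), applied to log2(scaled TPM + 1) with a variance trend, two-sided, with Benjamini-Hochberg adjustment over 13499 genes and calls at 0.05. It was tested on simulated data. Fold values are ratios of means of scaled TPM. GENCODE M21 (GRCm38, which is mm10) gave symbols, positions and exon lengths, with 54097 of 54331 identifiers matched and 12 tested genes without an exon length. Counting used Python 3.11.15 and pandas 2.3.3.

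Members and lists were chosen with earlier results of these data known. Named genes were Pfkfb4, then, among genes called at 2-fold with a mean of at least 3 scaled TPM in the higher group and no overlap, the 5 largest changes per direction among transcription factors, receptors and secreted proteins and the 3 largest in the other classes, 8 switched genes per direction, and the 6 largest gains and losses in TPM. Predicted gene models were counted and not named, and a few named genes are left out of the text and figures. Alternatives were other scaling, no trend, other pseudocounts, filters and limits, removal of the exon length trend by a lowess curve, a replicate block and omission of each library.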

Additional observations from a re-analysis of the deposited data

How the results depend on the processing

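Of 81 named genes, 75 kept their direction and their side of the threshold in the alternatives that tested them, 3 lost a call in at least 1 (Actb, S100a4 and Tead3), 3 gained one (Eef1a1, Hsp90aa1 and Pfkfb4) and 0 were called in the opposite direction. Depth is unknown and 3 libraries per group limit the precision. In TPM as deposited, 1954 genes were higher and 5705 lower, 202 and 621 at 2-fold. There, 29 transcription factors and 13 receptors were higher, 18 transcription factors and 32 receptors at least 2-fold lower, and 0 receptors at least 2-fold higher, and runs numbered 1 higher and 36 lower. With a pseudocount of 0.1, 509 genes were at least 2-fold higher and 621 lower, with 21 transcription factors, 34 receptors and 49 secreted proteins lower and 6 receptors higher. A test against a minimum change of 2-fold called 89 higher and 72 lower. Removing the exon length trend gave 208 higher and 504 lower at 2-fold, 0 receptors at least 2-fold higher and 3 higher runs. Quantile normalization called 34 receptors higher. Runs of at least 6 genes numbered 17 higher and 21 lower. A low limit of 0.25 TPM left 17 genes switched on and 28 off, one of 1 TPM 47 on, and a high limit of 5 TPM 8 on and 14 off.

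Leaving out each library in turn gave 2 to 5 receptors at least 2-fold higher, 12 to 21 at least 2-fold lower, and 59 to 69 genes switched off. The counts of switched genes rise here because fewer libraries must meet the limits. Over these fits, 2905 to 3221 genes were higher and 2674 to 2958 lower. Same-numbered libraries of the groups showed little shared deviation (correlations 0.0645, -0.0165 and 0.0743). Wild-type library 2 correlated better with knockout library 1 (0.0621) than with its own number. Correlations this small do not decide whether the numbers pair the libraries, and the knockout columns could not be linked to single samples. The main fit used no pairing. With the replicate block, 3084 genes were higher and 2889 lower, 311 and 334 at 2-fold.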

Other observations

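Of the 470 protein-coding genes called at 2-fold, 201 belong to a class, and the others to none of the 12. The genes below are a selection from the largest changes among them with a mean of at least 3 scaled TPM in the higher group and no overlap. They were listed after the results were known, and some larger changes are not given. U90926 fell from 63.4 ± 4.14 to 6.79 ± 0.71 scaled TPM (SD, n = 3), a log2 change of -3.05. Eya2, a transcriptional coactivator with phosphatase activity, stood at 13.3, 13.3 and 12.1 scaled TPM among wild-type libraries and 0.345, 0.381 and 1.79 among knockout libraries. Tmsb4x (thymosin beta-4), which binds monomeric actin, fell from 46.4 ± 1.11 to 6.3 ± 0.204 scaled TPM, a log2 change of -2.70 ± 0.048 (SE; limma adjusted p = 9.12e-06). Egln3, a prolyl hydroxylase that senses oxygen, stood at 5.2, 5.29 and 5.2 scaled TPM among wild-type libraries and 0.0892, 0.0965 and 0.0549 among knockout libraries. Msln (mesothelin), a surface antigen of mesothelium and carcinomas, fell from 82 ± 5.35 to 18.2 ± 1.58 scaled TPM (SD, n = 3). Zfp236 stood at 29.3, 23.1 and 22.7 scaled TPM among wild-type libraries and 2.21, 15.1 and 2.83 among knockout libraries, where knockout library 2 lies near the wild-type range, and its call was lost in 6 of the alternatives.

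Among the rises, Gpnmb, a lysosomal membrane glycoprotein, went from 39.4 ± 1.79 to 129 ± 7.97 scaled TPM, a log2 change of 1.68 ± 0.061 (SE; limma adjusted p = 4.28e-05). Lbp, the carrier that hands lipopolysaccharide to CD14, went from 4.34 ± 0.0974 to 21.4 ± 2.17 scaled TPM. Kng2, a kininogen, went from 0.989 ± 0.334 to 9.09 ± 0.477 scaled TPM, and Nrep from 1.28 ± 0.213 to 10.1 ± 1.41 scaled TPM (SD, n = 3 in each). Phf11d, a neighbour and paralog of Phf11b, stood at 3.12, 3.45 and 3.19 scaled TPM among wild-type libraries and 17.4, 16.7 and 17.5 among knockout libraries. Several replication-dependent histone genes rose as well: Hist1h1c stood at 10.4, 11.7 and 12.2 scaled TPM among wild-type libraries and 40.1, 36.3 and 46.2 among knockout libraries, Hist1h2bc at 1.74, 2.17 and 1.87 scaled TPM among wild-type libraries and 9.72, 8.21 and 9.32 among knockout libraries and Hist1h2bq at 3.2, 3.57 and 4.99 scaled TPM among wild-type libraries and 24.5, 18.1 and 21.7 among knockout libraries. Histone genes are short, similar to each other and mostly lack a poly(A) tail, and in this comparison shorter genes tended to be higher. The part of length in these rises was not tested. With the length trend removed the log2 changes of Hist1h1c, Hist1h2bc and Hist1h2bq were 1.44, 1.41 and 1.96. Hist1h4k was also called higher (1.98), but lost its call in 7 of 15 alternatives, among them removal of the length trend (1.38).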
